A study of Rattus norvegicus with 48 samples.

Results

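The rat miRNAs miR-365 and miR-455 (rno-miR-365 and rno-miR-455) were followed across all 48 livers of a study on ethanol feeding and liver regeneration. They are 2 of the 143 miRNAs with a measured value, and were chosen by their log2 expression difference between diets in untreated animals, miR-365 being higher and miR-455 lower after ethanol. In those untreated diet comparisons 2.1%, 0.699%, 3.5% and 0% of the 143 miRNAs were called at 0, 6, 24 and 72 h. The untreated diet differences are therefore given below as a description with no test. The diet tests use the saline- and AM21-treated animals, whose values were also known when the miRNAs were chosen, so they are not independent support for a diet difference. Male Sprague-Dawley rats, 8 to 14 wk old, had been pair-fed a Lieber-DeCarli liquid diet for 6 to 8 wk in which 36% of calories came from ethanol (EtOH) or, in controls, from maltose-dextran carbohydrate (CHO). Liver regeneration was started by 70% partial hepatectomy (PHx), the removal of the left lateral and medial lobes. Untreated rats were collected at 0 h (before PHx) and at 6, 24 and 72 h after it. Other rats received saline or AM21, a locked nucleic acid oligonucleotide antisense to miR-21, and were collected at 0 and 24 h. AM21 was injected intraperitoneally at 7.5 mg/kg in 1 mL of saline 72 h before surgery and again right after PHx, and the saline controls received the same volume. No genetic change is named for any group, and each of the 16 groups of diet, time and treatment held 3 animals. RNA came from whole liver, so fewer cells of a type and less RNA per cell cannot be told apart.

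A miRNA is a short RNA that guides Argonaute proteins to messenger RNAs, mainly through its seed near the 5′ end, and lowers their translation and stability. miR-365 is made from a gene near that of miR-193, has been described as a repressor of cyclin D1, a cyclin that carries cells from G1 into S phase, and is abundant in brown fat. miR-455 is made from a gene inside a fibrillar collagen gene, is best known from cartilage and brown fat, and has been linked to TGF-β signalling. After PHx the remaining hepatocytes leave quiescence and pass through the G1/S transition, and chronic ethanol intake is known to delay this response.

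The measured names carry no arm, so the mature strands that RefSeq lists for the rat (GRCr8) are shown, with the seed in capitals, to identify what the probes are likely to have counted and to show that both miRNAs read different target letters. Only the 3′ arm of miR-455 was listed there.
rno-miR-365-3p: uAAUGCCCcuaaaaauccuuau
rno-miR-365-5p: gAGGGACUuucaggggc
rno-miR-455-3p: gCAGUCCAcgggcauauacacu
rno-miR-193a-3p: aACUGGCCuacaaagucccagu
The seed of rno-miR-365-3p and that of rno-miR-455-3p each belonged to 1 rat mature name in RefSeq, so neither has a seed family in that table. The seed of the neighbour rno-miR-193a-3p was shared by 2 names. The hairpins of both genes follow, with the listed mature strands in capitals, because they show which arm each strand comes from.
Mir365b: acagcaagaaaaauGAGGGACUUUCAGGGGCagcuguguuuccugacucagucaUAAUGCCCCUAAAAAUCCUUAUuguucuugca
Mir455: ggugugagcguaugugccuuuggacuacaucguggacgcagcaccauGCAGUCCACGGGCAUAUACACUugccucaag
Mir365b lies on the plus strand at chr10:65184217-65184302 of GRCr8, inside the span of the gene Faul2, and 13815 bases from Mir193. Mir455 lies on the plus strand at chr5:81704834-81704911, inside the span of Col27a1 (chr5:81662822-81781502), which encodes a collagen of cartilage. The table used gives gene spans but no exons, so the exon or intron was not determined.

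Expression was read with the NanoString nCounter assay, which counts colour-coded probes without amplification, and is given as log2 CPM, the logarithm of a probe's share of all counts after scaling between libraries. A difference of 1 on this scale is a doubling. Counts recovered from these values totalled 58168 to 267582 per animal, with a median of 160078. miR-365 averaged 12.24 log2 CPM, rank 23 of 143 by mean level, with 208 to 1417 counts per animal and a median of 796. miR-455 averaged 7.87 log2 CPM, rank 131, with 14 to 65 counts and a median of 36.5. Because probes count with unequal efficiency, these ranks order probe signals and not molecules. The SD between animals of a group was 0.20 on the log2 scale for miR-365, against 0.06 expected from counting alone. For miR-455 it was 0.34, against 0.25 from counting, so counting noise made up much of its spread. The median SD of all 143 miRNAs was 0.29, and 11.2% of them had a lower SD than miR-365 and 70.6% a lower SD than miR-455. Counting intervals cover counting error only.

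Before the results, 2 libraries have to be named because they go against their label. miR-21, the target of AM21, stood at 6.59 to 7.76 log2 CPM in the 12 AM21-treated animals and at 12.97 to 15.76 in 34 of the 36 animals without AM21. The remaining 2, replicates 1 and 2 of the EtOH 0 h saline group, had 11.12 and 9.65 log2 CPM (448 and 120 counts), under every other saline or untreated animal and above every AM21-treated one. Except where said, the differences, calls and likeness that rest on them are given with and without them. The single remaining animal then stands for its group. The hepatocyte miRNA miR-122 took 42.1% to 68.8% of all counts, which fits the labelled tissue.

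**Figure D1:**
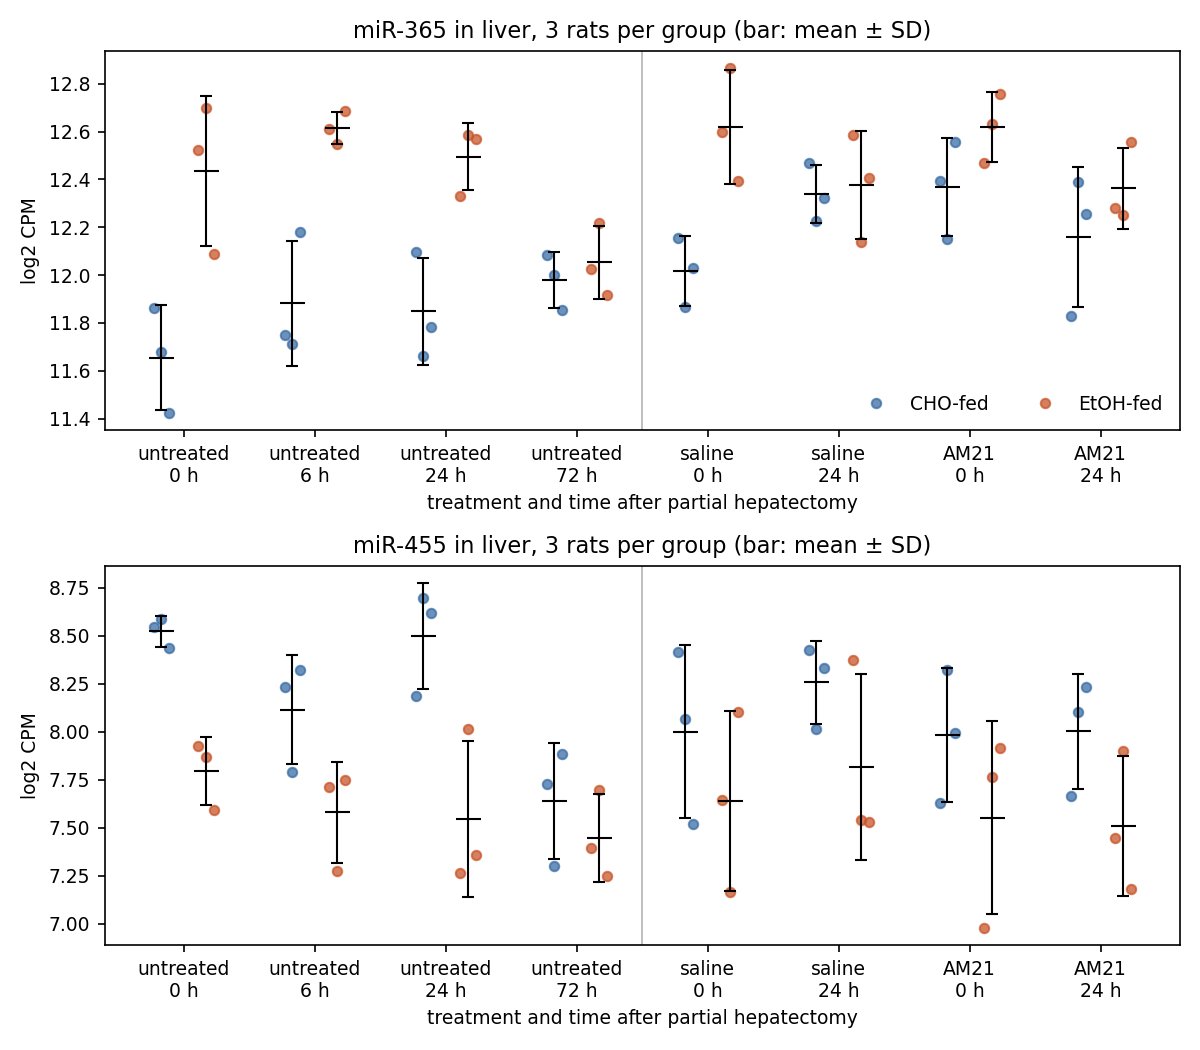
Level of miR-365 (top) and miR-455 (bottom) in log2 CPM for each of 48 rats, by treatment and time on the horizontal axis, with CHO-fed animals in blue and EtOH-fed animals in orange (points: animals; bars: group mean ± SD, n = 3). EtOH-fed animals lie above all CHO-fed animals for miR-365 in untreated rats at 0, 6 and 24 h and saline rats at 0 h, and below them for miR-455 in untreated rats at 0, 6 and 24 h.

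In untreated rats, miR-365 was higher in every EtOH-fed animal than in every CHO-fed animal at 0, 6 and 24 h, and the diets overlapped at 72 h. At 0 h its level in the 3 CHO-fed animals was 11.86, 11.68 and 11.42 log2 CPM (11.65 ± 0.22, SD, n = 3). The 3 EtOH-fed animals stood at 12.52, 12.70 and 12.09 (12.44 ± 0.31), a difference of 0.78 or 1.72-fold. No EtOH-fed animal reached down to the CHO range, although the lowest of them lay close above the highest CHO-fed animal. At 6 h the CHO-fed animals had 11.75, 11.71 and 12.18, and the EtOH-fed animals 12.61, 12.55 and 12.68, the tightest group of all with an SD of 0.07. The difference of 0.73 at 6 h was the largest in favour of EtOH among the 143 miRNAs at that time. At 24 h the CHO-fed animals had 12.10, 11.66 and 11.79 and the EtOH-fed animals 12.33, 12.58 and 12.57, a difference of 0.65 or 1.56-fold. At 72 h the ranges overlapped, with 12.08, 12 and 11.85 in CHO-fed and 12.03, 12.22 and 11.92 in EtOH-fed animals and a difference of 0.07. Within CHO-fed animals the mean at 72 h was 0.32 above that at 0 h, and within EtOH-fed animals it was 0.38 below. The 0 h values helped to choose miR-365, and rats at 0 h and 72 h are of different sets. A change of the diet difference over time was not tested in untreated rats.

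miR-455 showed the opposite order in the same animals. At 0 h its level was 8.55, 8.59 and 8.44 log2 CPM in CHO-fed rats (8.52 ± 0.08, SD, n = 3), the highest mean of the 16 groups. EtOH-fed rats had 7.92, 7.87 and 7.59 (7.80 ± 0.18), a difference of -0.73, which is 1.66-fold lower. The SD of the CHO-fed animals was smaller than the 0.23 that counting alone would give, and none overlapped with an EtOH-fed animal. At 6 h the CHO-fed animals had 8.24, 7.79 and 8.32, of which the second lay just above the EtOH-fed 7.72, 7.28 and 7.75. At 24 h the values were 8.19, 8.70 and 8.62 in CHO-fed and 7.27, 8.01 and 7.36 in EtOH-fed animals. This difference of -0.95, or 1.94-fold lower after ethanol, was the lowest of the 143 miRNAs at 24 h. At 72 h CHO-fed animals had 7.73, 7.30 and 7.88 and EtOH-fed animals 7.40, 7.70 and 7.25, which overlap. The counts behind these levels were small, 24 to 51 per CHO-fed and 20 to 39 per EtOH-fed animal at 0 h.

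These untreated contrasts chose both miRNAs, so nothing is read from their size or from their ranks among the 143 miRNAs. For orientation, groups did not overlap with EtOH above CHO in 6.99%, 4.9%, 12.6% and 12.6% of the 143 miRNAs at 0, 6, 24 and 72 h, and with CHO above EtOH in 9.09%, 9.09%, 9.79% and 5.59%. Total counts moved with diet in these animals too: at 0 h they were 58168 to 126821 in CHO-fed and 92245 to 205241 in EtOH-fed rats, and at 24 h 92286 to 166649 and 135992 to 201170. The part of depth in the untreated diet differences was not tested.

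In the saline- and AM21-treated animals the question was which diet difference other livers of the study showed. At 0 h mean miR-365 was higher after ethanol in both treatments, in animals whose values were also known when it was chosen. The saline-treated CHO-fed rats had 12.15, 11.87 and 12.03 log2 CPM and the EtOH-fed rats 12.60, 12.87 and 12.39, with no overlap and a difference of 0.60 (SE 0.18). Groups with EtOH entirely above CHO made up 9.09% of the 143 miRNAs in this comparison. With AM21, the CHO-fed rats had 12.39, 12.15 and 12.56 and the EtOH-fed rats 12.47, 12.63 and 12.76, a difference of 0.25 (SE 0.18). Here 8 of the 9 pairs of an EtOH-fed and a CHO-fed animal had the EtOH-fed one higher, but the ranges overlapped. Averaged over both treatments, miR-365 rose with EtOH by 0.43 (SE 0.12, 95% interval 0.18 to 0.68), or 1.34-fold, with a Benjamini-Hochberg adjusted p of 0.0306 by limma, and 6.99% of the miRNAs were called in this comparison. The two-sided exact permutation test of this value, with diets exchanged within each treatment, gave p = 0.01 for n = 6 against 6, where 0.005 is the smallest it can give. The call did not hold without the 2 saline libraries with low miR-21: the difference was then 0.31 with an adjusted p of 0.251 by limma, an exact permutation p of 0.0375 and 2.1% of the miRNAs called. Leaving out single animals gave 0.37 to 0.48, with adjusted p up to 0.102 by limma, and the call was lost without replicate 1 or 2 of CHO AM21, replicate 2 of CHO saline, replicate 1 or 2 of EtOH saline, or replicate 3 of EtOH AM21. The count of called miRNAs itself ran from 1 without replicate 2 of CHO saline to 21 without replicate 3 of that group.

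At 24 h the diet difference of miR-365 was 0.04 with saline and 0.20 with AM21 (SE 0.18 each). At 0 h it was 0.60 with saline and 0.25 with AM21. The saline value at 0 h was 0.38 without the 2 saline libraries with low miR-21. Saline-treated CHO-fed rats had 12.47, 12.23 and 12.32 and EtOH-fed rats 12.59, 12.14 and 12.41, which span nearly the same range. With AM21 the CHO-fed rats had 11.83, 12.39 and 12.26 and the EtOH-fed rats 12.28, 12.25 and 12.56. The averaged difference was 0.12 (SE 0.12, 95% interval -0.13 to 0.37), with an adjusted p of 0.621 by limma and an exact permutation p of 0.35. No miRNA passed in this comparison (0% of 143, with 14 at an unadjusted p under 0.05). The change of the diet difference from 0 to 24 h, tested directly, was -0.31 (SE 0.18, adjusted p = 0.457 by limma), and none of the 143 miRNAs was called for it (19 at an unadjusted p under 0.05). It was -0.19 (adjusted p = 0.749 by limma) without the 2 saline libraries with low miR-21. So a smaller diet difference at 24 h than at 0 h was not established for miR-365. The diet difference with AM21 minus that with saline was -0.09 (SE 0.18, adjusted p = 0.932 by limma), and without the 2 saline libraries with low miR-21 its sign turned to 0.02.

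miR-455 was lower in EtOH-fed animals on average in each of the 4 saline and AM21 comparisons, but the animals overlapped in all 4. At 0 h the saline-treated CHO-fed rats had 8.42, 8.07 and 7.52 log2 CPM and the EtOH-fed rats 7.65, 7.17 and 8.11, a difference of -0.36 (SE 0.27). With AM21 the values were 7.63, 8.32 and 8.0 in CHO-fed and 6.98, 7.76 and 7.92 in EtOH-fed rats, a difference of -0.43. The lowest animal of all, at 6.98, was an EtOH-fed AM21-treated rat with 29 counts. Averaged over treatments the difference at 0 h was -0.40 (SE 0.19, 95% interval -0.78 to -0.01), with an adjusted p of 0.204 by limma and an exact permutation p of 0.14. Without the 2 saline libraries with low miR-21 it was -0.16 (adjusted p = 0.767 by limma, exact permutation p = 0.6125), and the saline difference alone then became 0.10 in the other direction.

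At 24 h, saline-treated CHO-fed rats had 8.43, 8.01 and 8.33 log2 CPM of miR-455 and EtOH-fed rats 8.38, 7.54 and 7.53. With AM21 the values were 7.67, 8.10 and 8.24 in CHO-fed and 7.44, 7.90 and 7.18 in EtOH-fed rats. In each treatment 1 EtOH-fed animal lay inside the CHO range and the other two below it. The averaged difference was -0.47 (SE 0.19, 95% interval -0.85 to -0.08), or 1.38-fold lower after ethanol, and ranked 2 from the lowest of 143 in this comparison. Its adjusted p was 0.459 by limma, and the exact permutation test gave p = 0.05 against a smallest possible 0.005. The diet difference of miR-455 at 24 h minus that at 0 h was -0.07 (SE 0.27, adjusted p = 0.914 by limma), with an interval of -0.62 to 0.48 that leaves room for a change of either sign. The same held for AM21 minus saline, at -0.06 (SE 0.27, adjusted p = 0.932 by limma). With the 2 saline libraries with low miR-21 left out, these terms were -0.30 and -0.29, with adjusted p of 0.740 and 0.979 by limma.

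**Figure D2:**
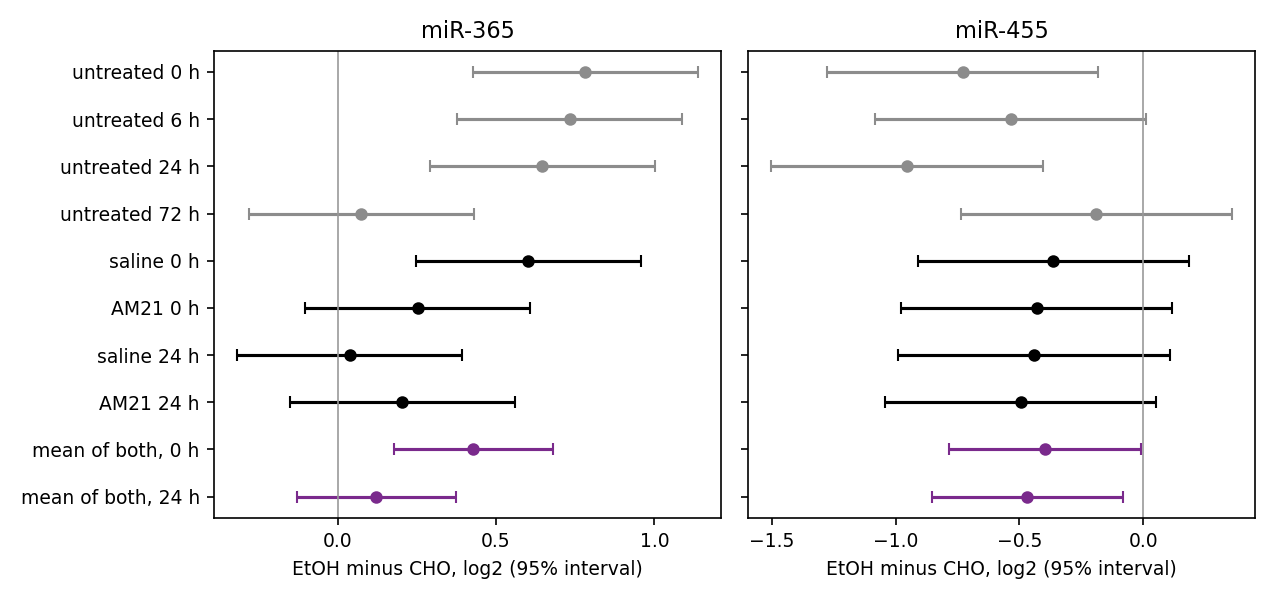
Diet difference (EtOH minus CHO, log2) of miR-365 and miR-455 in each of 8 pairs of groups and averaged over saline and AM21 at 0 and 24 h, with 95% intervals from the limma fit (grey: untreated, which chose the miRNAs; black: saline or AM21; purple: averages tested). All 8 values lie above 0 for miR-365, from 0.04 to 0.78, and below 0 for miR-455, from -0.95 to -0.19, where the saline value at 0 h turns to 0.10 without the 2 libraries with low miR-21.

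Averaging the diet difference over both times as well as both treatments, a contrast added after the values were seen, gave 0.27 for miR-365 (SE 0.09, 95% interval 0.10 to 0.45) and -0.43 for miR-455 (SE 0.14, 95% interval -0.71 to -0.16). The 12 CHO-fed animals had miR-365 at 11.83, 12.24 and 12.56 (lowest, median and highest) and the 12 EtOH-fed animals at 12.14, 12.51 and 12.87. For miR-455 the corresponding values were 7.52, 8.09 and 8.43 in CHO-fed and 6.98, 7.59 and 8.38 in EtOH-fed animals. Both distributions overlapped and were shifted in opposite directions. The adjusted p was 0.0477 by limma for each, 6.99% of the miRNAs were called, and the exact permutation tests gave p = 0.0059 for miR-365 and p = 0.0117 for miR-455. These calls sat at the threshold: the one for miR-365 was lost in 28 and that for miR-455 in 21 of 33 alternative settings, with the sign kept in all of them. Without the 2 saline libraries with low miR-21 the values were 0.22 (adjusted p = 0.233 by limma, exact permutation p = 0.0196) and -0.32 (adjusted p = 0.242, exact permutation p = 0.0879). Across all 8 diet comparisons, untreated ones included, miR-365 was higher and miR-455 lower after ethanol each time. Of the 143 miRNAs, 18 (12.6%) kept one sign in all 8, 7 of them higher and 11 lower after ethanol. On leaving out the 2 saline libraries with low miR-21, miR-455 was lower in 7 of the 8, and 19 miRNAs (13.3%) kept one sign.

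**Figure D3:**
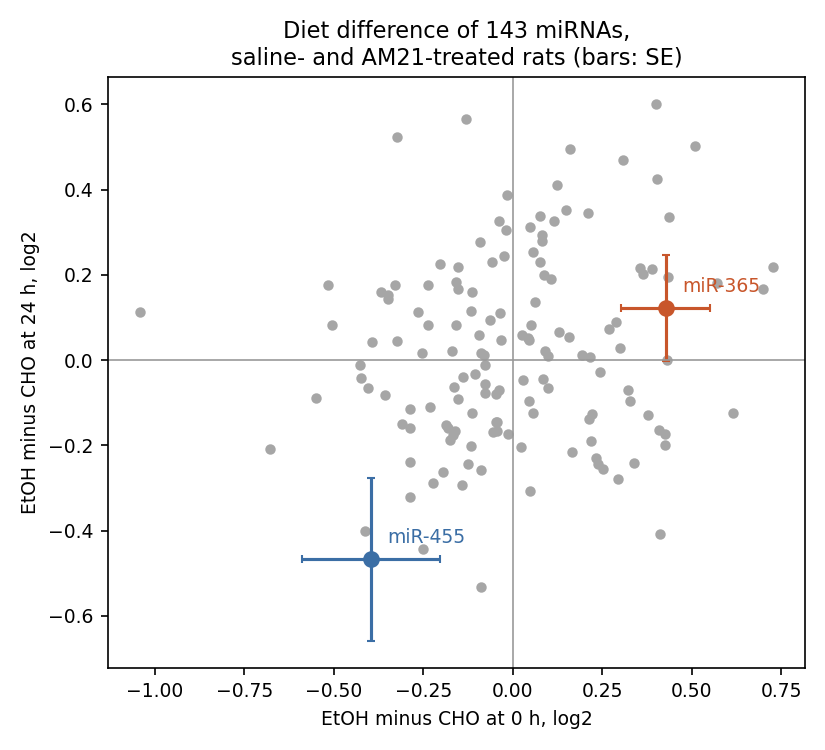
Diet difference (EtOH minus CHO, log2, averaged over saline and AM21) of each of 143 miRNAs at 0 h (horizontal) and 24 h (vertical), with miR-365 and miR-455 coloured and their SE as bars. miR-365 lies at 0.43 and 0.12, inside the cloud of other miRNAs, and miR-455 at -0.40 and -0.47, near its lower edge.

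Depth and cell-type markers were set beside these values. At 0 h, total counts of the saline- and AM21-treated animals were 105799 to 171780 in CHO-fed and 133322 to 240355 in EtOH-fed rats, and with depth (log10 of the total) in the model the differences were 0.43 for miR-365 and -0.34 for miR-455. At 24 h the medians were 164642 and 163756, nearly equal, and the miR-455 difference with depth in the model was -0.47. The hepatocyte markers miR-122, miR-192 and miR-194 (3 of 3 measured) had a summed level of 18.34 to 19.35 log2 CPM in CHO-fed and 19.06 to 19.42 in EtOH-fed animals at 0 h. The diet difference at 0 h was 0.43 for miR-122 (SE 0.14), 0.11 for miR-192 and 0.21 for miR-194, none of them called. The leukocyte markers (4 of 5 measured) had 11.28 to 12.23 in CHO-fed and 11.55 to 11.87 in EtOH-fed animals, with no common direction. Of them, miR-342-3p rose with EtOH by 0.73 (adjusted p = 0.00238 by limma), or by 0.69 without the 2 saline libraries with low miR-21. miR-142-3p differed by 0.44, miR-150 by -0.04 and miR-223 by -0.24, none of these being called. The red blood cell markers miR-451 and miR-144 (2 of 3 measured) spanned 10.02 to 12.54 and 9.99 to 12.36, the mesenchymal markers (4 of 5) 13.80 to 14.61 and 14.01 to 14.42, and the endothelial miR-126 15.01 to 15.40 and 14.84 to 15.37. At 24 h the hepatocyte markers spanned 19.15 to 19.74 in CHO-fed and 19.11 to 19.50 in EtOH-fed animals. The diet difference was then -0.20 for miR-122, 0.19 for miR-192 and 0.34 for miR-194, again with none called. No measured marker was at 0 in any animal. The part of these cell types in the diet differences was not tested.

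Compared with 0 h and with both diets averaged, miR-455 passed the threshold at 72 h only and miR-365 at no time. Untreated miR-455 stood at 7.59 to 8.59 log2 CPM at 0 h (median 8.18, n = 6) and at 7.25 to 7.88 at 72 h (median 7.55). It fell by 0.62 at 72 h (SE 0.19, adjusted p = 0.0120 by limma), a comparison in which 36.4% of the miRNAs were called. The fall was 0.89 from the CHO mean at 0 h and 0.35 from the EtOH mean. The CHO 0 h group was one of those that chose miR-455, and its mean was the highest of the 16 groups. Its difference from 0 h was -0.31 at 6 h (adjusted p = 0.188 by limma), where 28.7% were called. At 24 h it was -0.14, with 18.9% called and an adjusted p of 0.715. For miR-365 the differences at these times were 0.20 and 0.13, and -0.03 was found at 72 h (adjusted p = 0.188, 0.515 and 0.888 by limma). In saline- and AM21-treated rats at 24 h, where 44.1% of the miRNAs were called, miR-365 changed by -0.10 (95% interval -0.27 to 0.08, adjusted p = 0.391 by limma) and miR-455 by 0.10 (95% interval -0.17 to 0.38, adjusted p = 0.557). Without the 2 saline libraries with low miR-21 these were -0.04 and -0.015, with adjusted p of 0.765 and 0.947 by limma. By group, mean miR-365 in CHO-fed rats was 0.32 higher at 24 h than at 0 h with saline and 0.21 lower with AM21. In EtOH-fed rats it was 0.24 lower with saline and 0.26 lower with AM21. The fall in the EtOH-fed saline group rests on the 2 saline libraries with low miR-21. Its remaining 0 h animal stood at 12.39 against a 24 h mean of 12.38, a difference of -0.02. A change of the diet difference between these times was not established, as given above.

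The 72 h fall of miR-455 came together with other shifts. Total counts were 58168 to 205241 at 0 h and 163533 to 267582 at 72 h, and with depth in the model the value was -0.52 with an adjusted p of 0.0936 by limma, past the threshold no longer. The summed red blood cell markers spanned 10.35 to 11.89 at 0 h and 9.10 to 10.89 at 72 h, and both measured markers fell, miR-451 by 1.31 (adjusted p = 0.000796) and miR-144 by 1.16 (adjusted p = 0.0266 by limma). Mesenchymal markers spanned 14.09 to 14.44 and 13.65 to 14.40, with 1 of 4 called higher and 1 lower. Hepatocyte markers spanned 18.48 to 19.36 and 19.14 to 19.58, leukocyte markers 11.48 to 12.03 and 11.61 to 11.95, and miR-126 14.15 to 15.50 and 14.64 to 15.17. The labels place animals at 0 and 24 h in sets 1 to 3 and those at 6 and 72 h in set 4, without saying what a set is, so time and set cannot be told apart here.

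AM21 left both miRNAs short of the threshold. Over 0 and 24 h and both diets, miR-365 stood at 11.83 to 12.76 log2 CPM in the 12 AM21-treated rats (median 12.39), 11.87 to 12.87 in the 12 saline-treated rats (median 12.36) and 11.42 to 12.70 in the 12 untreated rats (median 12.09). AM21 minus the mean of both controls was 0.15 (SE 0.08, 95% interval -0.00041 to 0.31, adjusted p = 0.276 by limma), with 5.59% of the miRNAs called. Saline alone differed from untreated by 0.23 (SE 0.09, 95% interval 0.05 to 0.41), at an unadjusted limma p of 0.0125 and an adjusted p of 0.345, in a comparison where 0.699% were called. Mean miR-365 in CHO-fed rats was 11.65 and 11.85 without treatment and 12.02 and 12.34 with saline at 0 and 24 h, and in EtOH-fed rats 12.44 and 12.49 without treatment and 12.62 and 12.38 with saline. miR-455 stood at 6.98 to 8.32 with AM21 (median 7.83), 7.17 to 8.43 with saline (median 8.04) and 7.27 to 8.70 in untreated rats (median 8.10). AM21 minus controls was -0.25 (SE 0.12, 95% interval -0.49 to -0.01, adjusted p = 0.274 by limma), and saline minus untreated -0.16 (SE 0.14, adjusted p = 0.943). Without the 2 saline libraries with low miR-21 the AM21 values were 0.18 and -0.31, with adjusted p of 0.226 and 0.133 by limma, and saline minus untreated was 0.17 for miR-365 and -0.05 for miR-455 (adjusted p = 0.993 for each).

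Ordered by mean, the 16 groups ran from 11.65 (CHO 0 h untreated) to 12.62 (EtOH 0 h AM21 and EtOH 0 h saline) for miR-365. The 6 highest groups were all EtOH-fed. EtOH-fed rats at 72 h were the lowest EtOH group, at rank 11. For miR-455 the order ran from 7.45 (EtOH 72 h untreated) to 8.52 (CHO 0 h untreated), with the 7 highest groups all CHO-fed and CHO-fed rats at 72 h at rank 11. With its 1 remaining animal, EtOH 0 h saline moved to 12.39 for miR-365 and 8.11 for miR-455, rank 5 in both orders, so that the CHO-fed run at the top of miR-455 was broken. No step between neighbours in either order stood clear of the spread: the animals' ranges overlapped in 15 of 15 neighbouring pairs for each miRNA, and the step was under the SD in 14 of 15 pairs for miR-365 and 15 of 15 for miR-455.

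Among the other 142 miRNAs, likeness was measured by Pearson's r over the 16 group means, as a description. miR-365 was most like miR-103 (r = 0.74), miR-30c (0.67), let-7a (0.67), miR-210 (0.63) and miR-378 (0.61). Least like it were miR-146b (-0.74), miR-455 (-0.66) and miR-3561-3p (-0.65). miR-455 was most like miR-582 (0.74), miR-598-5p (0.74), miR-3594-5p (0.70), miR-206 (0.70) and miR-3561-3p (0.67), and least like miR-103 (-0.77), miR-194 (-0.71) and let-7d (-0.70). The 16 groups include the untreated ones whose opposite diet differences chose miR-365 and miR-455, so a negative r between them is partly built in. miR-103 and miR-210 were likewise picked for higher levels after ethanol in untreated animals. The group means also share libraries and depth: log10 total count had r = 0.46 with miR-365 and -0.68 with miR-455. After removing group means, the r over 48 animals fell to between -0.10 and 0.21 for the 5 miRNAs most like miR-365, and to 0.18 between miR-365 and miR-455. With the 2 saline libraries of low miR-21 left out, r over group means was 0.57 to 0.73 for these 5, 0.53 to 0.70 for those most like miR-455 and -0.60 between miR-365 and miR-455, and the r within groups were -0.12 to 0.27 for the first 5 and 0.32 between miR-365 and miR-455. Opposed courses of the 2 miRNAs over group means follow in part from how they were chosen, and were not seen over animals within a group.

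**Figure D4:**
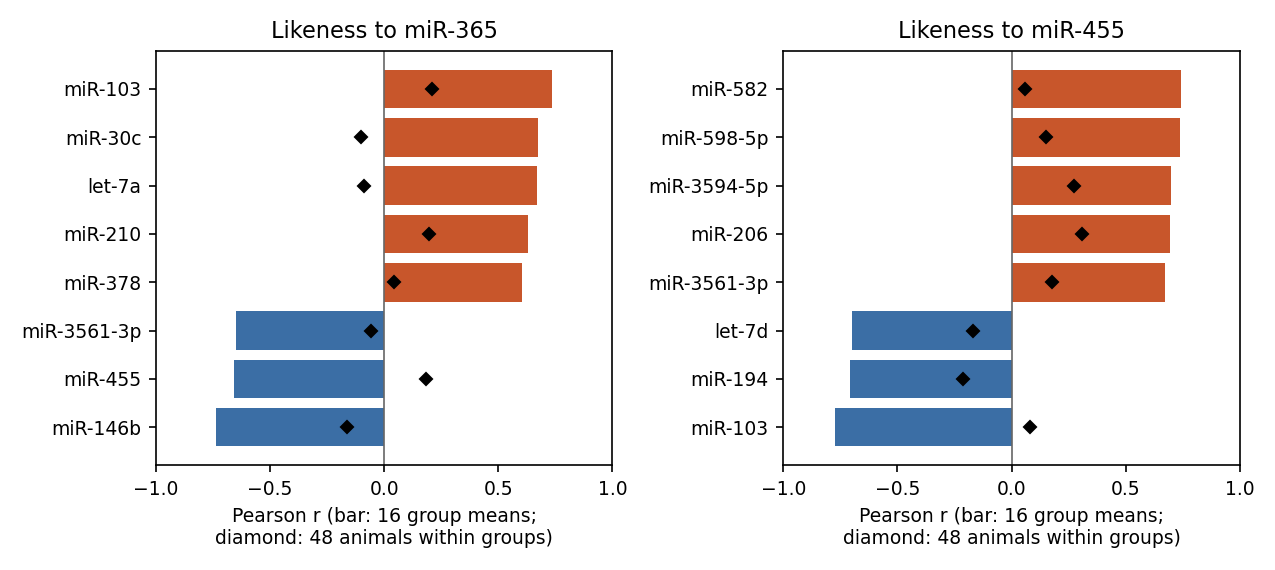
Pearson's r of each named miRNA with miR-365 (left) or miR-455 (right), over 16 group means (bars) and over 48 animals after group means were removed (diamonds). Bars reach 0.74 and -0.77, while the diamonds stay near 0, between -0.21 and 0.31. The group means include the untreated groups that chose miR-365 and miR-455.

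miR-193, whose gene Mir193 neighbours Mir365b, shared the diet order of miR-365 in some groups and not in others. It had 22 to 98 counts per animal (median 61.5). Its level was 8.63, 8.57 and 8.33 log2 CPM in saline-treated CHO-fed rats at 0 h. The EtOH-fed ones had 8.40, 8.18 and 8.28, a lower mean with overlapping animals. Mean miR-193 was also lower after ethanol with AM21, at 8.36 against 8.80 at 0 h and 8.73 against 8.84 at 24 h. In untreated rats it was higher after ethanol at 0 h (8.54 against 8.45), 6 h (8.55 against 8.48) and 24 h (8.71 against 8.29). At 72 h untreated miR-193 was lower after ethanol, at 8.51 against 8.63. With saline at 24 h its mean was higher after ethanol, at 8.92 against 8.45. Its diet difference over saline and AM21 was -0.33 at 0 h, also without the 2 saline libraries with low miR-21, and 0.18 at 24 h, neither of them called, and its r with miR-365 was 0.14 over group means and -0.31 within groups. miR-193b was not among the measured miRNAs.

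The functional groups to which both miRNAs are usually assigned gave calls by diet at shares that can be read against 6.99% of all 143 miRNAs called at 0 h (4.2% higher and 2.8% lower). Of 17 other measured miRNAs known to target G1/S cyclins and cyclin-dependent kinases, 1 was called at 0 h between diets, miR-16, which rose by 0.43 (adjusted p = 0.0474 by limma; 0.53 and adjusted p = 0.0863 without the 2 saline libraries with low miR-21), and the group's median was 0.03 against -0.04 over all 143. At 72 h, where 36.4% of all 143 were called, 19.6% higher and 16.8% lower, 5 of the 17 rose and none fell: miR-16 by 1.31, miR-34a by 1.04, miR-15b by 0.96, miR-17-5p by 0.73 and miR-19b by 0.64. miR-365 was not among the miRNAs that rose at that time. At 6 h in untreated rats 1 of the 17 was called higher and 3 lower, with 28.7% of all 143 called. At 24 h in untreated rats 4 were higher and none lower, with 18.9% of all 143 called. In saline- and AM21-treated rats at 24 h, 5 were higher and 3 lower than at 0 h, with 44.1% of all 143 called. Of 11 other measured miRNAs linked to extracellular matrix, cartilage and TGF-β signalling, none was called by diet at 0 or 24 h, with medians of -0.06 and 0.11. At 72 h 3 of these 11 fell, miR-181a by 0.90, miR-145 by 0.73 and miR-29a by 0.50, and 1 rose, miR-199a-5p by 0.43. These are calls by limma after adjustment, at the share called over all 143. In untreated rats 1 of the 11 was called higher and 3 lower at 6 h, and none higher and 2 lower at 24 h. In saline- and AM21-treated rats at 24 h, 5 were higher and 1 lower. The counts of both lists in treated rats include the 2 saline libraries with low miR-21. Of 6 other measured miRNAs of brown and white fat, miR-27a fell with EtOH at 0 h by 0.32 (adjusted p = 0.0306 by limma), or -0.33 with an adjusted p of 0.152 without the 2 saline libraries with low miR-21, and none passed at 24 h. miR-210, miR-103 and miR-451, picked for higher levels after ethanol in untreated animals and not all of the miRNAs called there, had positive differences in saline and AM21 rats at 0 h with a median of 0.36, and none of the 3 was called.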

How the data were processed

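Total RNA from frozen whole liver was assayed by NanoString nCounter in 48 rats. The authors scaled raw counts by the trimmed mean of M values and deposited log2 CPM after voom transformation, per the labels with limma. The 143 miRNAs kept, and the values of both members in all 48 animals, passed no further filter here; the filter used by the authors is not given in the sources used here, and control probes were not analysed here. Counts were recovered from the values with the 0.5 offset of voom, and all 6864 lay within 0.001 of a whole number. They served to give depth and to build alternatives. The 2 members and all lists were chosen with earlier results of these data known. Named miRNAs were the members, the 5 most and 3 least like each by Pearson's r over group means, and the list members.

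limma 3.58.1 in R 4.3.3 (lmFit, then eBayes) was run on the log2 CPM of all animals, with a mean for each group and a spread shared by 16 groups. P-values were adjusted by Benjamini-Hochberg over 143 miRNAs within each comparison and called under 0.05. Exact two-sided permutation tests exchanged diets within each treatment and time, giving 400 or 160000 arrangements. Without the 2 saline libraries with low miR-21 there were only 80 or 32000 arrangements. A test of 3 against 3 cannot go below 0.1, so single pairs of groups were not tested. The labels do not say whether libraries came from separate extractions, and p-values measure the spread between these animals. Steps were tested on simulated data. The settings tried were size factors by RLE, the 100 highest probes as the scale, a filter of 50 counts in 3 animals or more (138 miRNAs), weights from voom, a robust prior, a fit of only the groups compared, a block for the replicate number, depth as a covariate, and omission of each animal in turn. The average over both times, and leaving out 2 saline libraries, were added after the data were seen. No pair of libraries of the same group agreed within sampling noise, and pairs across groups were not compared in this way. Python 3.11.15 with matplotlib 3.10.9 drew the figures. Sequences are from RefSeq (GRCr8).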

Additional observations from a re-analysis of the deposited data

How the results depend on the processing

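The diet difference of miR-365 at 0 h in saline- and AM21-treated rats kept its sign in all 21 alternatives and missed the threshold in 9: it was 0.38 with scaling to the 100 highest probes, 0.43 in a fit of only the groups compared, 0.31 with the 2 saline libraries of low miR-21 left out, and 0.37 to 0.48 with single animals left out. The miRNAs called there were 1 in the fit of only the groups compared, 3 without the 2 saline libraries and 1 to 21 without single animals, and 2 were called at 24 h in the fit of only the groups compared. The average over both times lost its calls most often. For miR-365 it was 0.27 with RLE size factors and 0.23 with the 100 highest probes. With the count filter, the fit of only the groups compared and the replicate block it stayed at 0.27 for miR-365 and -0.43 for miR-455 while both calls by limma were lost, with 6, 5 and 3 miRNAs called. With depth in the model the values were 0.28 and -0.40 (6 called), and without the 2 saline libraries 0.22 and -0.32 (0 called). Without single animals they were 0.23 to 0.30 for miR-365, -0.50 to -0.36 for miR-455, and 3 to 10 miRNAs called, the calls being lost in 21 and 16 of 24 omissions. The call for miR-365 held only without replicate 2 of CHO 24 h AM21, replicate 2 of EtOH 24 h saline or replicate 3 of EtOH 0 h saline.

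The sign of differences near 0 turned. The diet-by-time term of miR-455 ran from -0.22 to 0.049 without single animals, above 0 in 5 of 24, with 0 to 11 miRNAs called (11 without replicate 3 of CHO 0 h saline), and 1 called without the 2 saline libraries. Its diet-by-AM21 term ran from -0.18 to 0.084, above 0 in 7 of 24, and that of miR-365 was 0.020 without the 2 saline libraries. The 72 h difference of miR-365 ran from -0.12 to 0.036, above 0 in 4 of 12. The 24 h difference of miR-455 in treated rats was -0.015 without the 2 saline libraries, and the saline diet difference at 0 h was then 0.38 for miR-365 and 0.10 for miR-455. The 72 h fall of miR-455 lost its call only with depth in the model, at -0.52, and ran from -0.68 to -0.53 without single animals. Called miRNAs in the fit of only the groups compared were 17 at 6 h, 9 at 24 h and 0 for saline, and without single animals 23 to 64 at 6 h (27, 64 and 23 without the untreated 0 h replicates 1 and 2 of CHO and 3 of EtOH), 5 to 11 for AM21 and 0 to 1 for saline (0 without replicate 1 of CHO 0 h saline). Without the 2 saline libraries they were 5 for AM21 and 0 for saline.

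The replicate number was checked as a pairing on values left after removing group means, and all 3 pairs correlated above 0.1 in 4 of 22 comparisons, so it was not used as pairing. With the replicate block, saline against untreated had 2 calls, the average over both times lost both calls as given above, and no other call of miR-365 or miR-455 changed. No animal at 6 or 72 h shares a number with 0 h, so these have no blocked value. The group left with 1 animal, after both saline libraries were dropped, took its variance from the other groups. Depth limits miR-455 most: at a median of 36.5 counts, counting alone gives an SD of 0.25.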
